A study of Arabidopsis thaliana with 75 samples.

Results

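The 200 Arabidopsis genes described here had the lowest ratio of uncapped RNA to total mRNA in untreated Col-0 seedlings. They were taken from nuclear loci with a mean of at least 10 CPM (counts scaled to the library's total in gene loci) in untreated Col-0 seedling mRNA, and are the lowest 200 of the 11922 such loci that had a finite deposited value of the log2 uncapped share. Another 364 loci met the expression minimum without such a value; 53 of these had a row in the GMUCT data of untreated Col-0 described below, and 3 had a level above 0 there. Untreated Col-0 mRNA and uncapped RNA chose the members, so their levels in those libraries are a description, and calls counted in contrasts against them are descriptive too and support nothing.

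The series compared Col-0 plants with mta, a line named for the catalytic subunit of the m6A writer, and with 35SALKBH10B, in which the 35S promoter drives high levels of the demethylase ALKBH10B. Whole seedlings of 14 days were untreated or kept in 1 µM flg22, a peptide of bacterial flagellin, for 4 h. Leaves of 4 weeks were collected at times that the titles give as 00 and 24 with no unit; the titles name Pst and the treatment tag names flg22, so these groups are called 00 and 24 only. The 75 samples fall into 25 groups of 3, of which 12 seedling mRNA, 12 leaf mRNA, 18 GMUCT and 26 m6A libraries were used, and mRNA of 35SALKBH10B is not analysed here. The labels do not say that replicates were separate cultures or plants, and p-values therefore reflect only sample-to-sample spread, possibly of technical origin.

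Most mRNAs carry a cap at the 5′ end and a poly(A) tail. When the cap is removed or the chain is cleaved, the remaining piece has a free 5′ phosphate and is normally degraded by 5′ to 3′ exonucleases such as XRN4. GMUCT (mapping of uncapped and cleaved transcripts across the genome) sequences those pieces, so a low uncapped share means few such pieces for the amount of mRNA counted. m6A, a methyl mark on adenosine that in plants lies mostly near the end of the transcript, is written by a complex that holds MTA, erased by ALKBH10B and read by proteins that affect the stability of the RNA.

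Seedling mRNA libraries held 9442047 to 13222937 counts in gene loci and leaf libraries 20467621 to 44052628. GMUCT libraries ranged from 3107893 to 41465534 reads, and the shallowest was the second untreated Col-0 library, in which 1 read equals 0.322 RPM (reads scaled to the library total). Uncapped ALKBH10B RNA stood at 440.3 ± 29.5 RPM in untreated 35SALKBH10B and at 37.0 ± 0.872 in untreated Col-0, and uncapped MTA RNA at 9.86 ± 0.189 RPM in untreated mta and 21.3 ± 2.75 in Col-0 (mean ± SD, n = 3). Seedling counts did not separate the strands, whereas leaf counts, GMUCT reads and m6A peaks did. Untreated seedlings are named 4 h in the mRNA data and 0 h in GMUCT and m6A, so changes with flg22 in the latter may include 4 h of time.

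The members were short genes, and many lay opposite another gene. Their median annotated span was 1543 bases against 2604 over the 11922 loci, and 59 of the 200 (29.5%) spanned under 1000 bases against 3.65%. An annotated gene on the other strand covered at least 10% of the span of 75 members (37.5% against 13.8% of all loci) and at least 50% of the span of 56 members (28.0% against 3.70%). Non-coding genes were frequent: 27 members were annotated as lncRNA and 4 as ncRNA, and 169 (84.5%) coded for proteins against 99.2% of all loci. All 27 lncRNA members had a gene on the opposite strand. The members lay on every nuclear chromosome, with 55 on chromosome 1, 37 on 2, 35 on 3, 25 on 4 and 48 on 5. Their median mRNA level was 44.2 CPM (10.08 to 8200), not lower than the 33.4 of all loci, while their median uncapped level was 1.92 RPM against 29.4.

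The lowest values belonged to loci whose uncapped reads were nearly absent. AT2G41231 (TAIR10, chromosome 2, 17195292 to 17195915, plus strand) had the lowest log2 share of all loci, −13.23, with 2 GMUCT reads over the 3 untreated Col-0 libraries. It overlaps ORS1, a gene of a small family that regulates organ size, on the other strand. AT3G22121, an lncRNA on chromosome 3 (7794956 to 7796327, plus strand) that lies opposite CWLP, a gene for a cell wall protein, followed at −12.75 with 14 reads. AT5G63195 (−11.35, 4 reads), AT1G78922 (−10.95, 1 read), AT5G42092 (−10.87, 4 reads) and AT5G25340 (−10.73, 1 read) came next. AT1G78922 lies opposite VP2, which encodes a pyrophosphatase, and AT5G25340 opposite EBF2, an F-box protein of ethylene signalling. AT4G13505, opposite the ammonium transporter gene AMT1;1, stood at −10.23 with 18 reads, AT5G66053 at −10.19 with 4 reads and AT5G02370, which overlaps the metallothionein gene MT2B, at −10.10 with 119 reads. Of the 10 lowest members, CEL5 (chromosome 1, 8095449 to 8097790, plus strand), a gene of the cellulase family, was the only one without an opposite gene: its share was −10.10, with 2 reads at 11.3 CPM of mRNA.

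Values around the limit were continuous. The last members inside it were the receptor-like kinase gene CCR4 at −3.43, the ubiquitin receptor gene RAD23D at −3.42 and AT4G22490 at −3.42. The next loci outside were AT5G38980 at −3.41, the glutathione transferase gene GSTF7 at −3.40 and the defensin-like LCR69 at −3.40. When the ratio was computed from the RPM and count tables, it lay within 1 log2 unit of the deposited share for 187 of the 200 members and over 3 units away for 5. A list of 200 chosen from that ratio shared 139 members (69.5%), and one chosen with a minimum of 30 CPM shared 128 (64.0%).

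For members with a gene on the opposite strand, seedling mRNA counts of the member and of its partner were within 1.5-fold of each other in 42 of the 75 pairs, while the stranded libraries mostly separated them widely. AT3G22121 had 1286 ± 257 CPM and CWLP 1269 ± 259 CPM in untreated Col-0 seedlings. In leaves at 00 the member had 0.753 ± 0.136 and CWLP 313.0 ± 64.0 CPM, and in GMUCT 0.139 ± 0.120 and 4854 ± 3393 RPM. The lncRNA was thus at the level of CWLP in seedling counts, which mix the strands, and at a small part of it in leaves, which separate them. Members were chosen for few GMUCT reads beside their seedling mRNA, so its low GMUCT level is a description only. AT5G02370 and MT2B stood at 1371 and 1626 CPM in seedlings, at 2.43 and 641 CPM in leaves at 00, and at 1.17 and 173 RPM in GMUCT. AT4G20362 and RABE1b, which encodes a chloroplast translation elongation factor, stood at 853 and 873 CPM, at 0.503 and 1767 CPM, and at 0.0615 and 1485 RPM. The same held for AT1G72600 and GER1, a germin-like protein gene, with 578 and 585 CPM in seedlings but 2.11 and 1471 CPM in leaves.

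The median log2 ratio of member to partner was −0.11 in seedling mRNA over the 71 of 75 pairs with both above 0, −4.79 in leaf mRNA at 00 over 61 pairs and −6.30 in GMUCT over 64 pairs. Member and partner were within 1.5-fold of each other in 42 pairs in seedling mRNA (56.0%, against 26.3% of the 1644 loci with a partner), in 1 pair in leaves and in 0 pairs in GMUCT. In leaves 38 of the 75 members were at least 10-fold below the partner and 7 had no count, and in GMUCT 55 were at least 10-fold below it. The seedling mRNA and GMUCT levels are from the libraries of the choice and are a description, and only the leaf levels stand apart from it. Fold changes of member and partner, from libraries the choice did not use, were also closer in seedlings than in leaves. With flg22 in mta seedlings the log2 fold changes of member and partner were within 0.5 of each other in 64 of 69 pairs tested (92.8%, against 79.5% of all loci with a partner), and between 24 and 00 in Col-0 leaves in 6 of 43 (14.0% against 21.5%). In seedling mRNA, reads from the stretch that member and partner share cannot be told apart, and how much of each member's count is its own was not tested.

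**Figure D1:**
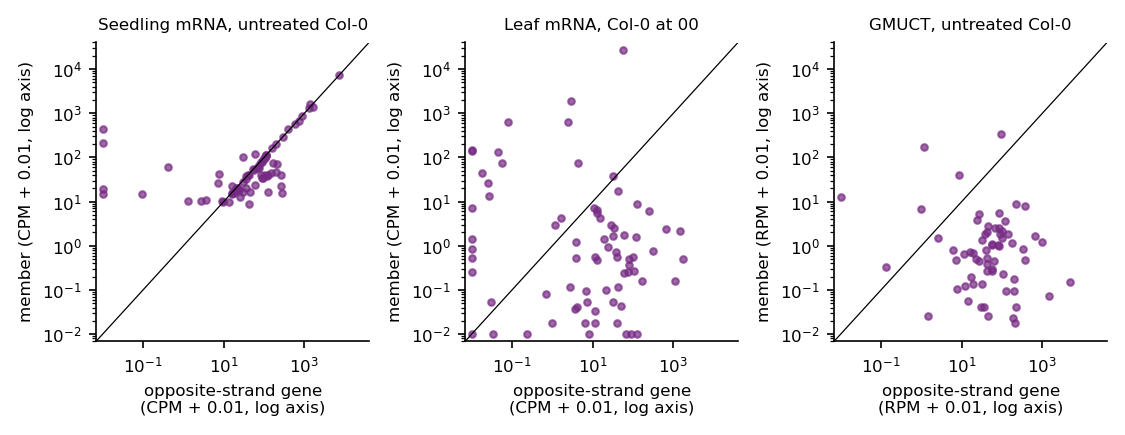
Level of each of the 75 members with an opposite-strand gene (vertical axis) against that of the gene opposite (horizontal axis), both on log scales, in untreated Col-0 seedling mRNA (CPM), Col-0 leaf mRNA at 00 (CPM) and untreated Col-0 GMUCT (RPM). In seedling mRNA 42 of the 75 pairs are within 1.5-fold of the line of equality and the others lie further from it. In leaf mRNA and GMUCT most points lie far below the line. The seedling mRNA and GMUCT libraries shown chose the members.

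A few members were themselves the high gene of the pair. CAB1, which encodes a chlorophyll a/b-binding protein and lies opposite NRPA2, a gene for a subunit of RNA polymerase I, had 7388 CPM in seedlings beside 7383 for NRPA2. In leaves at 00 CAB1 had 27717 and NRPA2 56.5 CPM, and in GMUCT 344 and 95.4 RPM. PSBX, a small photosystem II protein, and its partner RPA1A stood at 674 and 744 CPM in seedlings and at 1900 and 2.83 CPM in leaves. AGP21, an arabinogalactan protein of the cell wall, and AT1G55335 stood at 39.3 and 42.0 CPM in seedlings and at 73.2 and 0.0468 CPM in leaves. In leaves each of these members was thus far above its partner.

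The 125 members without an opposite-strand gene carried a less extreme but still low share. Their median deposited log2 share was −3.91 (−10.1 to −3.42), against −5.39 (−13.2 to −3.44) for the 75 with a partner and −0.34 over all loci. Among them were 5 plant defensins of the PDF1 class, whose mRNAs are classical markers of jasmonate and ethylene signalling, the serine protease inhibitor UPI, the signalling peptides RALF1 and IDA, the lipid transfer proteins EARLI1 and LP1, and the aquaporin PIP1A. All 200 members were also sorted into classes by words in the gene names. Of these, 172 matched no class, so a class can lack genes of its kind. Only the photosynthesis and cell wall classes held at least 4 members. Per length of annotated span, which includes introns, CAB1 was highest in the photosynthesis class, at 5896.5 CPM per kb. PSBX followed at 936, the photosystem I antenna gene LHCA2 at 560 and the photosystem II gene PSBTN at 556. In the cell wall class the highest were AGP12 at 189, AGP21 at 92.1, the xyloglucan-modifying XTH16 at 29.3 and AGP5 at 22.6. The photosynthesis class also held the Rubisco small subunit gene RBCS2B, at 518 CPM per kb, and the ferredoxin gene FD1, at 35.5.

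The low share was kept in every seedling group. The deposited median of the members was −4.20 in untreated Col-0, where they were chosen, −4.37 in flg22-treated Col-0, −4.18 in untreated mta, −3.69 in flg22-treated mta, −4.33 in untreated 35SALKBH10B and −3.76 in flg22-treated 35SALKBH10B. All loci stood between −0.62 and −0.34 in the same groups. In the other 5 groups between 128 and 154 of the 200 were again among the 200 lowest, and between 183 and 196 in the lowest 10%, of 186 to 199 with a value. No member with a value reached the median of all loci in any group. The deposited share is 1 value per group, so no spread between replicates can be given. The 200 loci with the highest share in untreated Col-0 had medians of 2.54 to 3.06 over the groups.

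**Figure D2:**
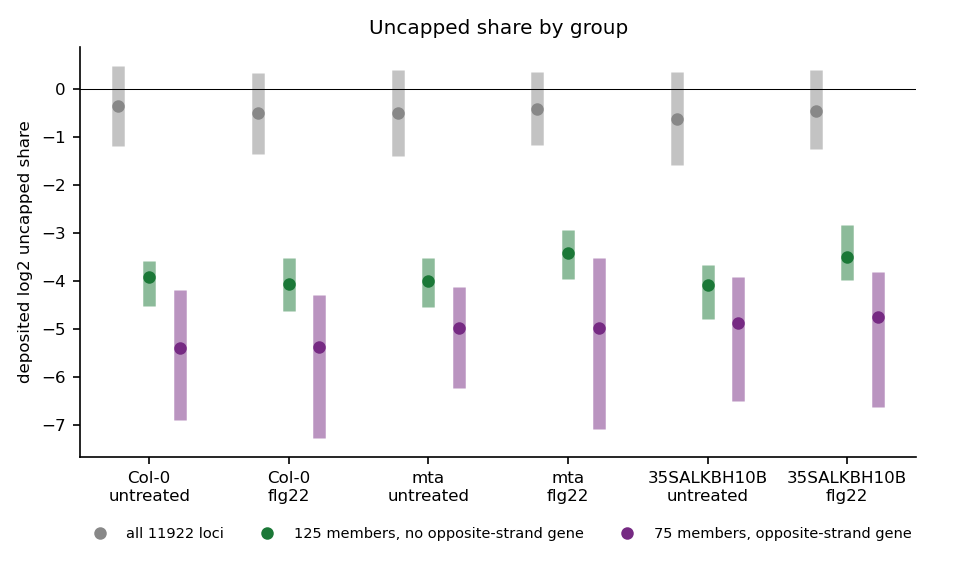
Deposited log2 ratio of uncapped RNA to mRNA (vertical axis) in the 6 seedling groups, with a dot at the median and a bar from the lower to the upper quartile, for all 11922 loci, the 125 members without and the 75 members with an opposite-strand gene. Members lie well below all loci in every group, including the 5 groups that were not used to choose them. Seedling mRNA counts mix the strands in every group, a limit that all groups share for members with an opposite-strand gene.

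In seedling mRNA, flg22 changed many members in both directions. All 200 passed the filter on low counts. In Col-0, 75 were higher and 85 lower at the adjusted threshold, where 27.9% and 30.7% of the 19887 loci tested were; this contrast holds the libraries of the choice and is a description. In mta, whose libraries the choice did not use, 53 members rose (26.5%, against 22% of all loci tested) and 77 fell (38.5%, against 20.2%), by edgeR's quasi-likelihood test with Benjamini-Hochberg adjustment at 0.05. The median log2 fold change of the members in mta was −0.13 against −0.02 for all loci.

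The largest rise among members whose groups did not overlap was that of RALF1. This gene, for a peptide ligand of the receptor kinase FERONIA, had 13.2, 18.1 and 18.6 CPM in untreated and 92.1, 95.7 and 80.4 in flg22-treated mta (log2 fold change 2.42 ± 0.13, SE, edgeR adjusted p = 2.0e-18). Every treated library was above every untreated one, as in Col-0, where RALF1 went from 11.3–16.9 to 117.8–130.7 CPM. UPI stood at 174.7, 170.1 and 178.4 CPM in untreated and at 484.4, 459.1 and 387.2 in treated mta (1.35 ± 0.08, adjusted p = 6.2e-17 by edgeR), again without overlap. Further members that rose, also without overlap, were AT4G12500 (2.00 ± 0.07), which has near-identical neighbours, AT2G38870 (1.94 ± 0.10), AT5G62150 (1.61 ± 0.10) and AT3G18250 (1.60 ± 0.07). AT5G62150 had 29.6 ± 3.89 CPM in untreated and 91.0 ± 4.41 in treated mta, and 12.2 ± 0.941 and 215.6 ± 13.8 in Col-0.

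All 6 members of the photosynthesis class fell with flg22 in mta, and all 6 were also lower in Col-0. Over all loci tested, 20.2% fell in mta and 30.7% were lower in Col-0. In mta their log2 fold changes ran from −1.13 for FD1 to −0.49 for CAB1, with a median of −0.86, and in Col-0 the median was −1.29. RBCS2B had 574.1, 632.7 and 616.7 CPM in untreated and 338.5, 352.4 and 327.3 in treated mta (−0.84 ± 0.07, edgeR adjusted p = 8.3e-13), with no overlap; its sequence is close to other RBCS genes, so its counts are uncertain. The 5 mesophyll marker genes, of which CAB1 is one, also fell in mta, and in Col-0 their summed level was 18380 CPM untreated and 10100 with flg22. One of them, CA1, stood at 355 and 344 CPM in Col-0. Of 3 root markers tested in mta 2 fell, PYK10 and COBL9, the latter at 0.766 CPM in untreated Col-0. The summed root level in Col-0 was 1040 and 616 CPM, mostly from PYK10. Of 3 guard cell markers tested in mta 0 rose and 0 fell. The 1 seed marker tested, EM6, rose, and the 1 pollen marker tested did not pass. The part of cell composition in these values was not tested, and in bulk samples fewer cells of a type and less RNA per cell cannot be told apart. In the cell wall class, AGP21 (−1.51 ± 0.18) and XTH16 (−0.93 ± 0.16, from 21.8–24.2 to 11.4–12.7 CPM) fell in mta, while AGP5 rose from 36.0–39.5 to 50.2–60.8 CPM (0.56 ± 0.12, adjusted p = 0.00013 by edgeR). AGP12, the highest of the class per length, had 151.8, 137.8 and 162.0 CPM untreated and 191.0, 176.3 and 121.2 treated, which overlap. AT1G72600, opposite GER1, had the largest fall (−1.88 ± 0.08) among members whose groups did not overlap, and its mRNA cannot be told apart from that of GER1.

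Between the genotypes under flg22, members were more often lower than higher in mta. Of the 200 members, 94 (47.0%) were lower and 24 (12%) higher in mta than in Col-0, where 19.9% and 18.1% of all loci tested were, and their median log2 fold change was −0.25 against 0.03. Without an opposite-strand gene 69 of 125 were lower and 14 higher, with a median of −0.32. Of the 200 loci with the highest share, 23% were lower and 28% higher. In untreated seedlings, where the libraries of the choice enter, the description was similar, with 82 lower and 37 higher (15% and 18.1% of all loci) and a median of −0.23; in all 59.5% were called, against 33.1%. The response to flg22 itself was more positive in mta than in Col-0 for 26 members and more negative for 50 (6.91% and 12.2% of all loci, 19.1% together), again a description. Members chosen for high mRNA beside few uncapped reads in Col-0 may be lower in another genotype from the choice alone, and the part of this was not tested.

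The signalling peptide IDA, which acts in organ abscission, was among the members lower in mta. It had 47.7, 45.9 and 58.1 CPM in flg22-treated Col-0 and 18.2, 16.5 and 15.8 in flg22-treated mta (−1.58 ± 0.14, edgeR adjusted p = 1.1e-11), so the groups were far apart. AT4G08555 had 49.3 to 51.9 CPM in Col-0 and 18.4, 16.3 and 6.76 in mta (−1.86 ± 0.19). NEET, an iron-sulfur protein gene, had 6.35 to 7.09 CPM in Col-0 and 1.91 to 2.81 in mta (−1.56 ± 0.29). ZAT11, a zinc-finger transcription factor gene, stood at 116.3 to 141.0 in Col-0 and 56.5 to 59.3 in mta (−1.18 ± 0.10). SAG13, a dehydrogenase gene used as a senescence marker, went the other way. It had 84.5, 87.4 and 80.9 CPM in treated Col-0 and 252.5, 255.4 and 256.4 in treated mta (1.60 ± 0.08, edgeR adjusted p = 2.0e-18), and 107.8 to 129.6 and 279.4 to 297.8 CPM in the untreated groups. AT5G42530 was also higher in treated mta, at 656.2 ± 10.3 against 360.6 ± 32.0 CPM (0.86 ± 0.06).

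The 5 PDF1 defensins had more mRNA in untreated mta than in untreated Col-0, and with flg22 in mta 1 of them rose, 1 fell and 3 did not pass the test. Over all loci tested, 18.1% were higher in untreated mta, and 22% rose and 20.2% fell with flg22 in mta. PDF1.2 had 37.8, 40.5 and 54.2 CPM in untreated Col-0 and 133.0, 140.6 and 167.8 with flg22, but 121.0, 130.6 and 125.5 in untreated mta and 107.3, 112.8 and 99.1 with flg22. Thus its untreated mta libraries lay well above untreated Col-0 and below every treated Col-0 library, and within mta the treated ones were slightly lower (−0.24 ± 0.10, edgeR adjusted p = 0.049). PDF1.2c went from 15.8–22.3 to 71.4–94.6 CPM with flg22 in Col-0, and had 46.2–50.7 CPM untreated and 46.9–57.1 treated in mta, which overlap. PDF1.2, PDF1.2b, PDF1.2c and PDF1.3 have closely similar sequences, so counts of the single genes are uncertain. PDF1.4 rose with flg22 in mta from 41.8–44.6 to 91.2–113.1 CPM (1.26 ± 0.10, adjusted p = 3.5e-13 by edgeR). All 5 were higher with flg22 in Col-0, by 1.64 to 2.01 on the log2 scale, beside 27.9% of all loci tested. Under flg22, 4 of 5 were lower in mta than in Col-0, with PDF1.4 the exception, beside 19.9% of all loci tested. The 5 were grouped by symbol after their values were seen.

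With flg22 in mta, the members with the strongest rise in mRNA also rose in uncapped RNA. Of the 200 members, 161 passed the filter of 1 RPM in at least 3 GMUCT libraries. This leaves out members with the fewest reads, so counts below describe those 161 and not the list. The libraries can be of any group, so a member low in untreated Col-0 can pass through groups where it is higher. Counts of higher members beside those of all loci may be raised by this, and the part of it was not tested. With flg22 in Col-0, which holds libraries of the choice, 26 were higher and 46 lower, where 10.3% and 40.1% of the 19277 loci tested were (50.4% together). By edgeR on recovered reads it was 35 higher and 23 lower of 176, beside 19.2% and 18.7% of all loci. The balance thus turned with the method, and the methods differ in filter, scaling and model at once. In untreated seedlings, likewise a description, 2 members were higher and 2 lower in mta than in Col-0 (1.95% and 1.52% of all loci, 3.47% together), and 4 higher and 4 lower in 35SALKBH10B (2.94% and 8.99%, 11.9% together). With flg22 in mta, 22 rose (13.7%, against 6.03% of all loci tested) and 5 fell (3.11%, against 15.8%), by limma on log2(RPM + 1) with Benjamini-Hochberg adjustment; the median was 0.09 against −0.20 for all loci. On the reads recovered from the RPM values, edgeR with TMM scaling called 30 of 176 members higher and 2 lower, beside 11.2% and 10.9% of all loci.

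In mta, RALF1, UPI and AT4G12500 rose in both kinds of RNA. RALF1 had 2.17, 2.91 and 1.42 RPM of uncapped RNA in untreated and 10.1 to 15.04 in flg22-treated mta (log2 fold change 2.09 ± 0.30, limma adjusted p = 0.00037). UPI had 13.04, 5.73 and 7.21 RPM untreated and 50.2, 51.2 and 55.3 treated (2.53 ± 0.49, adjusted p = 0.0022 by limma), and the groups did not overlap in either gene. AT4G12500 rose from 19.8–29.7 to 131.7–152.6 RPM and AT2G38870 from 25.3–35.2 to 160.1–171.6 RPM. PDF1.4 was the 1 defensin to rise (1.79 ± 0.22), from 0.749–1.77 to 6.89–7.20 RPM. AGP5 rose from 3.11–5.68 to 7.77–11.4 RPM (1.07 ± 0.34, limma adjusted p = 0.033). Of the falls, LP1, a lipid transfer protein gene, was the largest, from 39.7, 51.2 and 53.5 to 20.4, 17.3 and 12.98 RPM (−1.47 ± 0.28, limma adjusted p = 0.0023). CAB1 fell from 209.2–265.5 to 134.9–145.0 RPM (−0.77 ± 0.25, limma adjusted p = 0.037), a call that 7 of 11 other settings lost.

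With flg22 in 35SALKBH10B, 30 of 161 members rose (18.6%, against 9.45% of all loci tested) and 4 fell (2.48%, against 10%), which is 21.12% in all against 19.5%, with a median of 0.36 against −0.10. By edgeR on recovered reads 38 of 176 rose and 1 fell, beside 13% and 6.43% of all loci. Treated replicate 3 stood apart from the other treated libraries in many members: without it 57 of 160 rose and 12 fell, beside 16.2% and 26.3% of all loci, and the share of members called went from 21.12% to 43.12%. Without treated replicate 2 the share called was 5%, and without replicate 1 it was 5.625%. PDF1.2 had 10.8, 13.03 and 7.35 RPM untreated and 222.0, 155.7 and 20.4 RPM treated (3.03 ± 0.57, limma adjusted p = 0.0045), the last value being that of replicate 3. All treated values were above the untreated ones. CYP710A1, a sterol desaturase gene, had 1.88, 3.48 and 1.49 RPM untreated and 46.4, 50.2 and 8.50 treated (3.16 ± 0.44, limma adjusted p = 0.00060), again with the lowest treated value in replicate 3. AT4G08555 went from 0.706, 0.405 and 0.565 to 9.68, 12.2 and 1.42 RPM. In all, 4 of the 5 defensins rose in uncapped RNA in this line, beside 9.45% of all loci tested.

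Under flg22, members that passed the test in uncapped RNA were mostly higher in 35SALKBH10B and in mta than in Col-0, though most members tested did not pass. In 35SALKBH10B 45 of 161 were higher (28.0%, against 20.2% of all loci tested) and 4 lower (2.48%, against 8.2%), with a median of 0.47 against 0.24. By edgeR on recovered reads 35 of 176 were higher and 8 lower, beside 14.6% and 13.4% of all loci. The surplus of higher calls among all loci thus depended on the method, which differs in filter, scaling and model at once. The defensins PDF1.2 (4.19 ± 0.57, limma adjusted p = 5.5e-05), PDF1.2c (3.16 ± 0.50) and PDF1.3 (2.75 ± 0.51) led the higher members. PDF1.4 was lower, at 0.797, 0.753 and 0.308 RPM against 2.46, 3.07 and 3.53 in Col-0 (−1.32 ± 0.22, limma adjusted p = 0.00032). All 6 members of the photosynthesis class were higher, by 0.98 to 2.29 on the log2 scale. RBCS2B stood at 80.8, 94.7 and 96.0 RPM in 35SALKBH10B and at 15.7, 15.1 and 22.98 in Col-0 (2.29 ± 0.20, limma adjusted p = 8.4e-07). The groups did not overlap in any of these genes.

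In mta under flg22, 11 of 161 members were higher (6.83%, against 2.33% of all loci tested) and 0 lower (against 0.306%) by limma; at an unadjusted p of 0.05, 35 were higher and 0 lower. By edgeR on recovered reads 9 of 176 were higher and 0 lower, beside 1.47% and 1.58% of all loci. The surplus of higher over lower calls among all loci thus depended on the method, and not on scaling alone, since filter and model differ too. UPI had 50.2, 51.2 and 55.3 RPM in mta and 2.75, 12.8 and 16.1 in Col-0 (2.47 ± 0.49, limma adjusted p = 0.011), with all mta libraries above those of Col-0. The call was lost without Col-0 replicate 1 or mta replicate 3 (adjusted p up to 0.065). SAG13 had 38.6, 29.0 and 32.0 RPM in mta and 7.74, 7.96 and 10.3 in Col-0 (1.82 ± 0.23, limma adjusted p = 0.00025), which is close to its difference in mRNA. PSBX stood at 22.7–30.3 RPM in mta and 8.34–12.3 in Col-0 (1.38 ± 0.24, limma adjusted p = 0.0035). AT5G42530 was higher in uncapped RNA in both lines, at 55.5, 79.2 and 77.6 RPM in mta, 229.5, 186.1 and 84.8 in 35SALKBH10B and 12.3, 24.9 and 33.6 in Col-0.

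**Figure D3:**
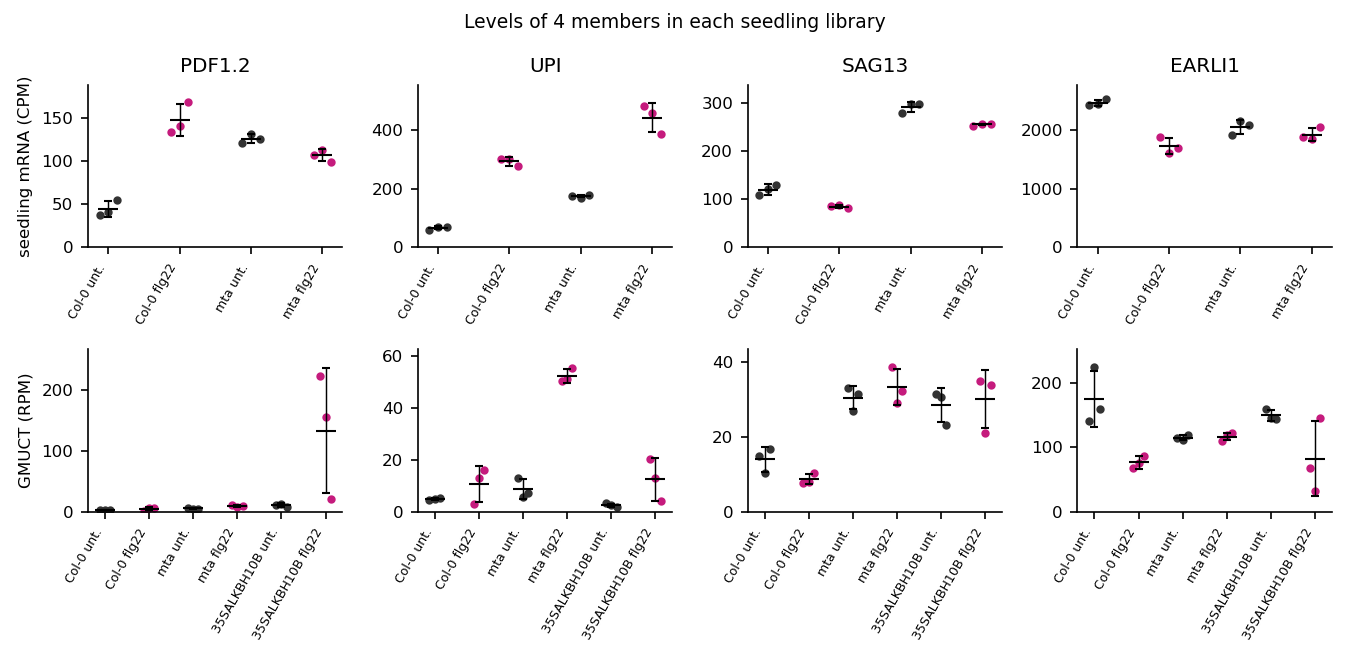
Seedling mRNA (CPM) and uncapped RNA (RPM) of PDF1.2, UPI, SAG13 and EARLI1 in every library, with mean and SD (n = 3) per group. PDF1.2 mRNA lies at 121.0 to 130.6 CPM in untreated mta, between the untreated and the flg22-treated Col-0 libraries, and its uncapped RNA is highest in flg22-treated 35SALKBH10B, at 20.4 to 222.0 RPM.

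Uncapped RNA was then compared with mRNA in a single limma model over both kinds of library. The mRNA values were TMM-scaled and the RPM values were not, so a shift common to all loci can enter each relative difference. TMM factors of mRNA were 0.8346 to 0.8737 in treated Col-0 and 0.9499 to 0.9546 in treated mta. The part of scaling in the relative calls, of members and of all loci, was not tested. Of the members, 155 were tested, after a filter on uncapped RNA of the same kind, so its limit holds here too. With flg22 in mta 3 rose and 1 fell relative to mRNA, beside 0.0976% and 0.982% of the 17422 loci tested; PSBX (1.15 ± 0.26) and PSBTN (0.83 ± 0.20) were among the 3, but were lost in 11 and 14 of 15 other settings. Under flg22, 26 members were higher relative to mRNA in mta than in Col-0 (16.8%, against 3.61% of all loci tested) and 0 were lower (against 0.832%); at an unadjusted p of 0.05 it was 86 and 0. Their median was 0.70 against 0.15 for all loci, and without an opposite-strand gene 23 of 112 were higher. The share called went from 16.77% to 35.48% without GMUCT replicate 3 of treated Col-0, and to 5.806% without mRNA replicate 3 of treated mta. In untreated seedlings, a description since the choice used those libraries, 0 of 155 were called by limma, and 9 were higher and 6 lower at an unadjusted p of 0.05, beside 0.0631% and 0.224% of all loci. With flg22 in Col-0, also a description, 7 were higher and 30 lower, beside 0.344% and 16.1%.

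Among these 155, mRNA was mostly lower and uncapped RNA mostly higher in mta. Of the 155 members tested, 72.3% had lower mRNA and 83.9% higher uncapped RNA in mta than in Col-0 under flg22, and 91 (58.7%) had both, against 47.7%, 70.0% and 26.8% of all loci. Of the 26 that passed the test, 23 were also called lower in mRNA and 3 also called higher in uncapped RNA. Over all loci 774 passed in either direction, of which 497 were also called lower in mRNA and 57 also called higher in uncapped RNA. Calls that go with lower mRNA were thus frequent among all loci too. AT3G10930 had 160.04, 156.2 and 162.3 CPM of mRNA in Col-0 and 80.6, 86.5 and 70.4 in mta, and its uncapped RNA relative to mRNA was higher by 1.74 ± 0.38 (limma adjusted p = 0.016). AT2G38870 had 3621, 3488 and 3112 CPM in Col-0 and 2037, 2077 and 1283 in mta, beside 50.5, 128.1 and 148.3 RPM in Col-0 and 161.3, 160.1 and 171.6 in mta, a relative difference of 1.68 ± 0.39 (limma adjusted p = 0.020). PDF1.2 (1.48 ± 0.34) and UPI (1.88 ± 0.49) were called as well, but were lost in 3 and 8 of 15 other settings. As the members were chosen for an extreme in Col-0, how far a value nearer to all loci in mta follows from the choice alone was not tested.

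**Figure D4:**
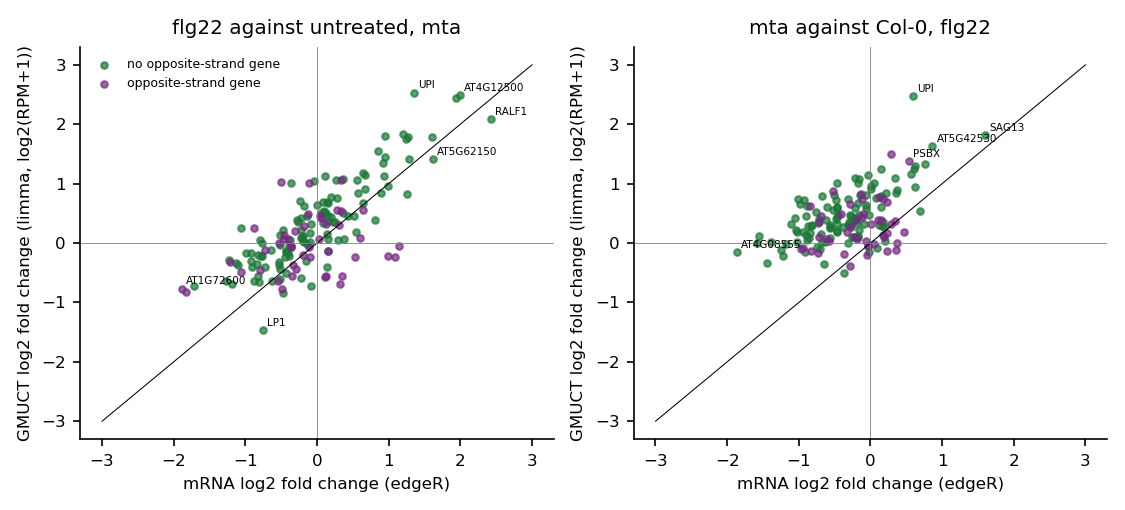
Log2 fold change in uncapped RNA (limma, vertical axis) against that in mRNA (edgeR, horizontal axis) for members tested in both, for flg22 in mta and for mta against Col-0 under flg22, coloured by presence of an opposite-strand gene; the line marks equal change. Responses to flg22 in mta spread along the line, whereas between the genotypes most points lie above it. Of 155 members, 58.7% were lower in mRNA and higher in uncapped RNA. The mRNA values are TMM-scaled and the RPM values are not.

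In leaves, where strands were separated, several members that seedlings expressed were near 0 at 00 and appeared at 24. Of the 200 members, 175 passed the filter in leaves. In Col-0, 57 were higher (32.6%, against 35.6% of all 18824 loci tested) and 54 lower (30.9%, against 32.7%) at 24 than at 00 by edgeR, and in mta 43 (24.6%, against 30.9%) and 44 (25.1%, against 28.1%). Over both directions it was 63.4% in Col-0 and 49.7% in mta, against 68.3% and 59%, so these shares were near or below those of all loci. SAG13 had 0.482, 0.212 and 0.132 CPM at 00 and 108.0, 103.5 and 90.4 at 24 in Col-0 (log2 fold change 8.44 ± 0.90, edgeR adjusted p = 6.8e-06). AGP5 went from 0.550–1.35 to 77.3, 75.4 and 94.4 CPM (6.29 ± 0.49), and neither gene overlapped between the groups. UPI had no count in the 3 Col-0 leaf libraries at 00 and 2.18, 3.58 and 0.623 CPM at 24, and EARLI1 had 0.0229, 0 and 0 CPM at 00 and 20.6, 33.7 and 15.1 at 24, in contrast to its 2426 to 2521 CPM in untreated Col-0 seedlings. AT3G18250, at 0 to 0.0303 CPM at 00, reached 23.2 to 28.4 at 24. For UPI, EARLI1 and AT3G18250, with libraries at 0, the size of the fitted change in Col-0 depends on the prior count and is left out.

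Falling members in Col-0 leaves included AGP21, from 40.9, 86.3 and 92.4 to 5.65, 7.12 and 3.65 CPM (−3.74 ± 0.48, edgeR adjusted p = 3.0e-05), and RBCS2B, from 5007, 6028 and 5430 to 877.2, 1659 and 1347 CPM (−2.08 ± 0.21, adjusted p = 5.3e-06 by edgeR), with no overlap in either. AGP21 thus fell in leaves, where its reads are its own, as in mta seedlings. LP1 had 459.0 to 764.4 CPM at 00 and 159.6 to 362.5 at 24 (−1.31 ± 0.33). Of the 6 members of the photosynthesis class, 4 fell in Col-0 and 3 in mta, beside 32.7% and 28.1% of all loci tested. The summed level of the 5 mesophyll markers was 74120 CPM at 00 and 47500 at 24 in Col-0. Of the 5 root markers, PYK10 stood at 0.376 CPM at 00 and 73.1 at 24 in Col-0, and the other 4 were below 0.1 CPM at both times. The part of cell composition in these values was not tested.

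Genotype differences in leaves were not as one-sided as in seedlings. At 00, 29 of 175 members were higher (16.6%, against 15.5% of all loci tested) and 15 lower (8.57%, against 13.3%) in mta, with a median of 0.14 against 0.02, and at 24, 18 were higher (10.3%, against 14.5%) and 21 lower (12%, against 14.2%). SAG13 was higher in mta at 00, at 29.1, 2.64 and 11.9 CPM against 0.132 to 0.482 (5.65 ± 0.86, edgeR adjusted p = 0.0011), as it was in seedlings. NEET stood at 237.8, 246.7 and 247.1 CPM in mta at 00 and at 77.0, 141.4 and 135.1 in Col-0 (1.05 ± 0.21, edgeR adjusted p = 0.0047), whereas in treated seedlings it was lower in mta. PDF1.4 was higher in mta at both times, at 0.524–2.23 against 0.0303–0.265 CPM at 00 and 24.2–28.8 against 5.07–10.8 CPM at 24 (1.80 ± 0.41, edgeR adjusted p = 0.0073). RBCS2B at 24 had 3225, 3884 and 3301 CPM in mta and 877.2, 1659 and 1347 in Col-0 (1.42 ± 0.21, edgeR adjusted p = 0.00076).

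The change from 00 to 24 differed between the genotypes for 12 of 175 members (6.86%), 6 with a higher and 6 with a lower change in mta, beside 4.77% and 4.97% of all loci (9.74% together), and for 11.43% with a replicate block. PIP1A, an aquaporin gene, rose from 515.3, 577.9 and 543.3 to 1348, 878.9 and 1037 CPM in Col-0 and from 419.1, 384.1 and 399.6 to 1787, 1872 and 1930 in mta, a difference of 1.22 ± 0.21 on the log2 scale (edgeR adjusted p = 0.0065). LP1 fell in Col-0 as above, and in mta had 246.8, 430.5 and 549.0 CPM at 00 and 695.3, 585.6 and 582.8 at 24, a difference of 1.91 ± 0.46 (edgeR adjusted p = 0.027).

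m6A peaks were found on fewer members than on all loci. A summit lay in 53.8% to 58.5% of members, as the mean over libraries of each seedling group, and in 68.9% to 79.0% of all 11922 loci. In leaves it was 30.2% to 37.8% of members and 54.5% to 66.9% of all loci; seedling and leaf lists were made with different thresholds, so the tissues are not compared. In the seedling groups 20.4% to 22.2% of members with an opposite-strand gene had a summit and 73.6% to 81.3% of members without one. In the leaf groups it was 10.7% to 15.6% and 41.9% to 51.7%, so there both lay below all loci. Untreated mta, at 58.5% of members, was not below untreated Col-0, at 53.8% of members in 2 libraries. No test is given, since members are not replicates.

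**Figure D5:**
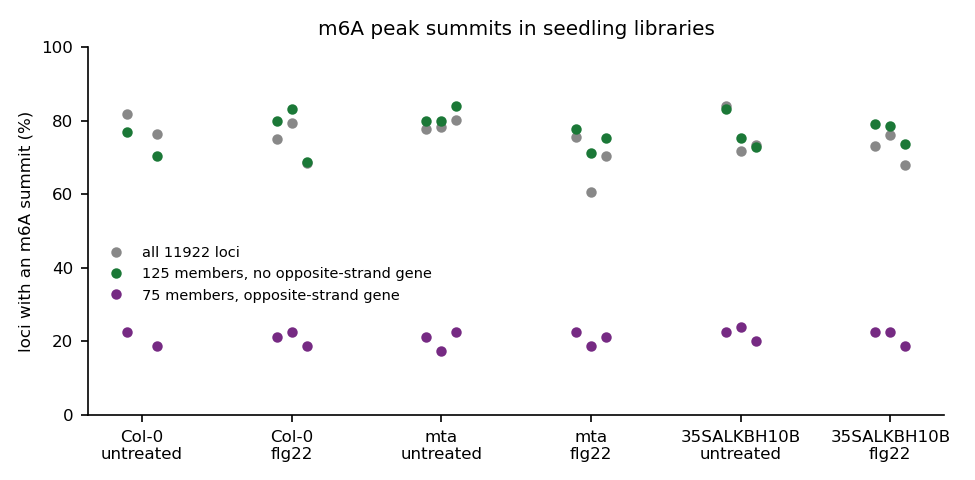
Percent of loci with an m6A summit (vertical axis) in each of the 17 seedling libraries, grouped by genotype and treatment, for all 11922 loci and for members without and with an opposite-strand gene. Members without such a gene lie near all loci, and members with one lie far below, at means of 20.4% to 22.2% per group.

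Of the 200 members, 75 had a summit in each of the 17 seedling libraries (37.5%, against 47.1% of all loci) and 67 in none (33.5%, against 6.71%). The latter were 55 of the 75 members with an opposite-strand gene and 12 of the 125 without. Where members had summits, the median fold enrichment over libraries, as the authors' caller gave it, was 3.72 against 4.35 for all loci, and 32.1% of summits lay beyond 80% of the span, counted from the gene's start, against 42.7%. AT1G79075 carried the highest mean enrichment, 11.3 (7.76 to 15.9), with a summit in all 17 seedling and all 9 leaf libraries. AT5G28750 (9.53), AT5G05370 (9.32), AT3G19660 (8.63) and AT2G40590 (8.50) followed, and AT3G19660 had no summit in any leaf library. Of the members without a summit in any seedling library, the 5 with the highest counted mRNA were AT5G02370, AT3G22121, AT4G20362, AT1G72600 and AT5G06865, and all 5 had an opposite-strand gene. AT5G06865 lies opposite PGIP1, an inhibitor of fungal polygalacturonases, and had 445 CPM beside 402 for PGIP1 in seedlings, but 7.87 beside 371 RPM in GMUCT.

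Genes of the decay pathway itself had a median log2 share near that of all loci. For 26 genes of decapping, 5′ to 3′ exonucleases, deadenylation and RNA surveillance it was −0.17 (−2.01 to 1.37), against −0.34 over all loci. Of these 26 genes 0 were members. Members are 200 of the 11922 loci, so a count of 0 among 26 is near that share and says nothing about decay genes. In mta seedlings flg22 raised 3 and lowered 2 of the 25 tested in mRNA (edgeR), beside 22% and 20.2% of all loci. In uncapped RNA 0 of 26 passed (limma), beside 6.03% and 15.8% of all loci. XRN4 had a share of 0.28, with 48.2 CPM of mRNA and 68.4 RPM of uncapped RNA in untreated Col-0.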

How the data were processed

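Per the labels, mRNA, GMUCT and m6A were measured in separate libraries. The authors deposited whole read counts for mRNA (seedlings by featureCounts 2.0.1 per the file header; STAR and TAIR10 per the submitters' processing notes), GMUCT as RPM per gene, and 1 log2 value of uncapped over total RNA per group. They also deposited MACS2 peaks per library, with fold enrichment as a ratio and −log10 q per the file layout. Every RPM column gave whole reads (100% of values within 0.01). In seedlings 30.5% to 34.7% of counts lay outside gene loci and were not used, nor were 12 count columns that no label maps to a sample.

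The members and gene lists were chosen with earlier results of these data known. In R 4.3.3, edgeR 4.0.16 fitted counts by quasi-likelihood (TMM, filterByExpr), and limma 3.58.1 fitted log2(RPM + 1) of loci with 1 RPM in at least 3 libraries and, for uncapped RNA relative to mRNA, the interaction of library kind and contrast on log2(value + 1), which understates low genes. Members' CPM are TMM-scaled, except where they choose the list. All p-values were Benjamini-Hochberg adjusted over all loci tested, with a threshold of 0.05. Summits went to the gene on the strand opposite to the one the file gives. Named genes are the 10 lowest and 3 on each side of the limit, per contrast up to 5 each way by fold change among calls without overlap, the extremes in m6A, and the highest per length in classes with at least 4 members. Others were chosen after their values were seen. Fits were tested on simulated data. Alternatives were DESeq2 1.42.0, another filter or pseudocount (0.5, 5), edgeR on recovered GMUCT reads, lists of 100 and 400, a minimum of 30 CPM, a peak q of 0.001, a replicate block and leaving out each library. Same-numbered leaf libraries deviated together in 3 of 3 pairs for 24 against 00 in mta (correlations 0.159 to 0.366) and for mta against Col-0 at 24 (0.223 to 0.411), so their numbers may pair them there. It was 2 of 3 pairs for 24 against 00 in Col-0 (−0.0533 to 0.261) and mta against Col-0 at 00 (−0.0361 to 0.404). Libraries of unlike numbers were not compared, and the main fits leave this possible pairing out. In seedling mRNA 0 pairs passed 0.1. In GMUCT 2 of 3 did for flg22 in 35SALKBH10B (0.0738 to 0.179) and for untreated 35SALKBH10B against Col-0 (−0.138 to 0.317).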

Additional observations from a re-analysis of the deposited data

Results flagged for a closer look

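In leaf mRNA, 11 named members changed from 00 to 24 differently in mta and Col-0, by edgeR's interaction of genotype and time (log2 difference, mta minus Col-0). By edgeR, the difference was negative for EARLI1 (−5.57 ± 1.27, SE, adjusted p = 0.021), SAG13 (−4.32 ± 1.05, adjusted p = 0.028), AT3G18250 (−4.20 ± 0.97, adjusted p = 0.022), AT4G08555 (−3.86 ± 0.97, adjusted p = 0.030) and AGP5 (−2.29 ± 0.60, adjusted p = 0.036). These 5 rose in both genotypes, from higher levels at 00 in mta, and EARLI1 and AT3G18250 had libraries at 0 in Col-0 at 00, so the size depends on the prior count. By edgeR, the difference was positive for AT5G42092 (3.23 ± 0.92, adjusted p = 0.047), AT2G36792 (2.15 ± 0.27, adjusted p = 0.0015), LP1 (1.91 ± 0.46, adjusted p = 0.027), CML42, a calmodulin-like gene (1.28 ± 0.37, adjusted p = 0.048), PIP1A (1.22 ± 0.21, adjusted p = 0.0065) and RBCS2B (1.11 ± 0.29, adjusted p = 0.037). In other settings the call was lost most often for AT5G42092 (12 of 16), CML42 (11 of 16) and AGP5 (9 of 16). The cause was not tested.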

How the results depend on the processing

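Results below are the percent of tested members called, with the value of the report in parentheses. The shallowest library that chose the members had 3107893 reads, and 75 members overlap a gene of the other strand, which seedling counts do not separate. Of 172 values of named genes, 124 passed the threshold in every setting run and 0 changed sign. Of all results and settings, 318 were unchanged by the criteria used and 84 moved, and the cause was not tested.

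The 5 mRNA contrasts of seedlings and both changes from 00 to 24 in leaves kept within 1.5 times of their counts in all settings run. For the difference of leaf changes (6.857), DESeq2 gave 12.57 and the 100 lowest members 2.632. For GMUCT, testing without a filter gave 10 with flg22 in mta (16.77) and 10 in 35SALKBH10B (21.12), and more low members were then in the denominator. Untreated mta against Col-0 (2.484) gave 1.5 without a filter, 3.977 by edgeR on recovered reads and 1.538 for the 100 lowest. Untreated 35SALKBH10B (4.969) gave 7.692 for the 100 lowest, 7.821 for the 400 lowest and 8.108 with a minimum of 30 CPM. mta against Col-0 under flg22 (6.832) gave 3.077 for the 100 and 4.19 for the 400 lowest. Relative to mRNA, a pseudocount of 5 gave 40.65 with flg22 in Col-0 (23.87), 11.61 with flg22 in mta (2.581), 5.806 for untreated mta (0) and 32.26 for mta under flg22 (16.77). The 100 lowest gave 38.33 with flg22 in Col-0 and 5.0 with flg22 in mta, the 400 lowest 0.5698 for untreated mta, and with flg22 in mta members without an opposite-strand gene gave 0.8929 and a minimum of 30 CPM 1.639.

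With the replicate block, the difference of leaf changes was 11.43 and flg22 in mta relative to mRNA 1.29, and the block moved no other count by over 1.5 times (63.0 for flg22 in mta mRNA, 54.29 for leaf change in mta, 29.71 for mta against Col-0 leaves at 24). In the contrasts where leaf numbers may pair the samples, the blocked counts were thus higher. Seedling mRNA numbers are shared only as numbers, while in 2 GMUCT contrasts of 35SALKBH10B 2 of 3 pairs passed 0.1.

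Leaving out 1 library at a time gave 16.57 to 22.29 for mta against Col-0 leaves at 00 (25.14; lowest without Col-0 replicate 2), 12.5 to 17.05 at 24 (22.29; moved by Col-0 replicates 1 and 3 and mta replicate 2) and 2.286 to 8.475 for the difference of leaf changes, where 8 of 12 libraries moved it. It gave 8.075 to 13.66 for GMUCT with flg22 in mta (each library but untreated replicate 1), 5.0 to 43.12 in 35SALKBH10B (each but untreated replicate 1), 0 to 1.899 for untreated mta (Col-0 replicate 2 and each mta library), 1.875 to 6.329 for untreated 35SALKBH10B (35SALKBH10B replicates 2 and 3) and 1.863 to 7.453 for mta under flg22 (each but Col-0 replicate 3; 1.863 without Col-0 replicate 1). Relative to mRNA it gave 15.48 to 33.55 with flg22 in Col-0 (mRNA of untreated Col-0 replicate 1), 1.29 to 3.226 with flg22 in mta (8 of 12 libraries), 0 to 2.581 for untreated mta (2.581 without the shallow library) and 5.806 to 35.48 for mta under flg22 (7 of 12 libraries).

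With peaks at a q of 0.001 or less, 24.67, 23.5 and 17.33 percent of members had a summit in leaves of Col-0 at 00, Col-0 at 24 and mta at 00. In seedlings it was 52.17 in untreated 35SALKBH10B, 49.83 in flg22-treated Col-0 and 53.0 in untreated mta. A log2 ratio was also taken from RPM and TMM-scaled CPM, with the pseudocount of the limma fits added to each. Its median over members was −3.57 in untreated Col-0, −4.03 in flg22-treated Col-0, −3.57 in untreated mta and −3.32 in flg22-treated mta. A pseudocount moves such ratios at low RPM, so these medians cannot be set beside those of the deposited share. Of the alternatives, a minimum over all features, tables in place of the deposited share and the leaf difference of changes were added after seeing the data.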
